A study of Mus musculus with 2 samples.

Results

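The 7 genes Sorl1, Cd7, Capn3, Cd22, Hid1, Pdlim4 and Ctla2a were taken from a table of 35275 genes being chosen by their read counts, which dropped among the most from effector to exhausted CD4 T cells. The counts of these same libraries were used for that choice, so their differences are given below as a description, with no test. TEa cells are C57BL/6 CD4 T cells with a transgenic receptor for a peptide of I-E alpha, a class II chain that BALB/c mice carry. The effector library came from TEa cells transferred into wild-type C57BL/6 mice that received a BALB/c skin graft. The exhausted library came from TEa cells transferred into CB6F1 mice, the hybrid of BALB/c and C57BL/6, whose own tissues carry the antigen. Effector and exhausted are the submitters' names. Both libraries were made from sorted spleen TEa cells, 1 library per group, and the labels give neither the time after transfer, the age of the mice nor the number of animals pooled. Recipient strain, graft and antigen amount differ together between the groups and cannot be told apart.

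The genes belong to different families. Sorl1 encodes SORLA, a receptor that moves other proteins between the Golgi, endosomes and the cell surface. Cd7 and Cd22 encode surface proteins of the immunoglobulin superfamily, the first known from T and natural killer cells and the second as an inhibitory receptor of B cells that binds sialic acid. Capn3 encodes a calcium-dependent protease best known from skeletal muscle. Ctla2a encodes an inhibitor of cysteine proteases related to the propeptide of cathepsins, and its name comes from its discovery in activated T cells. Hid1 encodes a Golgi-associated protein required for the formation of secretory granules, and Pdlim4 encodes a protein with a PDZ and a LIM domain that binds alpha-actinin and actin filaments.

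The effector library held 7844445 counted reads and the exhausted library 8508129. A gene counted as measured with at least 50 reads over both libraries, which held for 9999 genes and for 7 of 7 genes described here. Counts were scaled by library size (TMM factors of edgeR), and a gene was called lower or higher when the ratio of scaled counts was at least 2-fold and its 95% counting interval excluded equality. By this rule 7.07% of measured genes were lower in the exhausted library and 6.65% were higher. These shares are the background for the counts of called genes in each list below. The median log2 ratio of all measured genes was -0.002. All 7 genes were called lower, which their choice fixed, with a median log2 ratio of -5.99. With 1 library per group there is no replicate check, and the intervals cover only the error of counting. In RNA from bulk sorted cells, fewer cells that express a gene and less RNA per cell cannot be told apart.

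**Figure D1:**
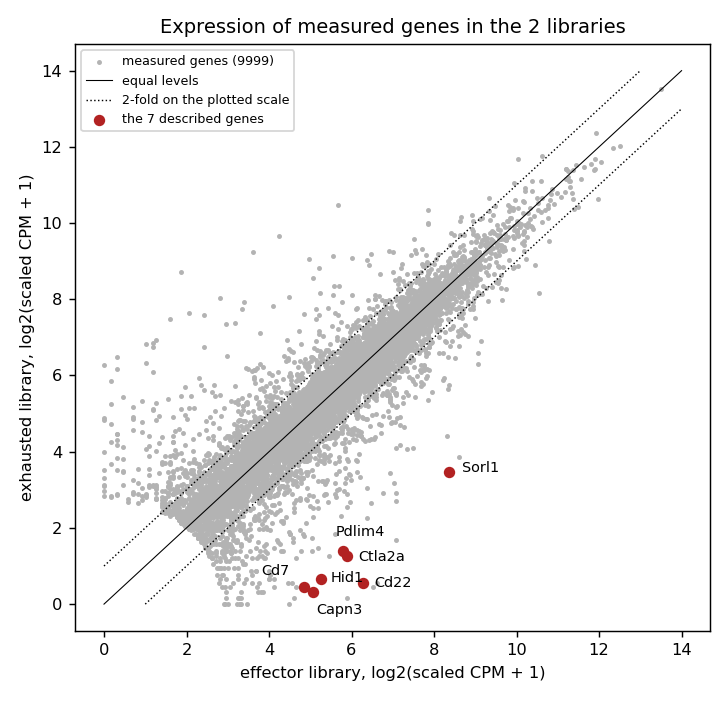
Level of each of 9999 measured genes as log2 of scaled CPM (its count relative to the scaled library size) plus 1, in the effector library (horizontal axis) and the exhausted library (vertical axis). The 7 described genes, in red, lie below the dotted line that marks a 2-fold difference on this scale, with Sorl1 to the right of the other 6.

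Among the surface receptors, Sorl1 (ENSMUSG00000049313, mm10 chromosome 9, 41964720 to 42124297, minus strand) had 2593 effector reads and 85 exhausted reads. Its level was lower in the exhausted library by 33.0-fold (counting interval 26.6 to 41.5). With this number of reads, Sorl1 had the narrowest interval of the 7 genes. It supplied 53.4% of their 4852 effector reads and 68.0% of their 125 exhausted reads. The exhausted library thus still held counted reads of Sorl1, with an exact Poisson interval of 67.9 to 105.1.

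Cd22 (ENSMUSG00000030577, chromosome 7, 30865402 to 30880342, minus strand) had 603 effector reads and 4 exhausted reads. The exhausted library was 163-fold lower (63.4 to 600.4), the lowest ratio of the 7 and the fifth lowest of all measured genes. Cd7 (ENSMUSG00000025163, chromosome 11, 121036747 to 121039418, minus strand) had 220 effector reads and 3 exhausted reads, a ratio of 79.3-fold lower (26.8 to 387.6). Both receptors were thus close to the floor of counting in the exhausted library, where the exact Poisson interval ran from 1.09 to 10.2 reads for Cd22 and from 0.619 to 8.77 reads for Cd7. With a prior count of 2 added to both libraries the Cd7 ratio was 48.0-fold.

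Of the protease genes, Capn3 (ENSMUSG00000079110, chromosome 2, 120456019 to 120504913, plus strand) had 255 effector reads and 2 exhausted reads. The ratio was 137.9-fold lower, with a wide interval of 37.8 to 1145, and 69.5-fold with a prior count of 2. Ctla2a (ENSMUSG00000044258, chromosome 13, 60934155 to 60936625, minus strand), the protease inhibitor gene, had 461 effector reads and 12 exhausted reads, 41.6-fold lower (23.6 to 81.0). The lower bound for Capn3 lay inside the interval of Ctla2a, so the intervals overlapped. The difference between their ratios was not tested.

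Of the genes with roles inside the cell, Hid1 (ENSMUSG00000034586, chromosome 11, 115347707 to 115367756, minus strand) had 294 effector reads and 5 exhausted reads, 63.6-fold lower (26.9 to 197.3). Pdlim4 (ENSMUSG00000020388, chromosome 11, 54054928 to 54069014, minus strand) had 426 effector reads and 14 exhausted reads, 32.9-fold lower (19.4 to 60.7). The exhausted library held a low but counted level of Pdlim4, with an exact Poisson interval of 7.65 to 23.5 reads. Across the 7 genes the ratios ran from 32.9-fold to 163-fold, and the intervals of Cd22 and Sorl1, at 63.4 to 600.4 and 26.6 to 41.5, did not overlap.

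**Figure D2:**
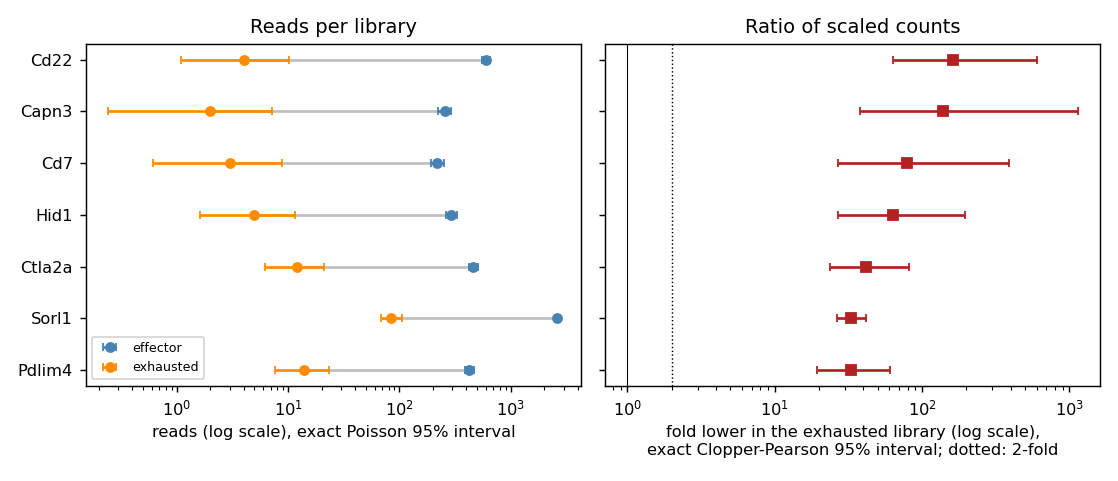
Left, reads of each gene in the effector and exhausted library on a log axis, with exact Poisson 95% intervals. Right, the fold by which scaled counts were lower in the exhausted library, on a log axis with exact Clopper-Pearson 95% intervals. Exhausted reads lie between 2 and 85 and effector reads between 220 and 2593, and each interval on the right starts above 19-fold.

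Levels were compared between genes as TPM, the share of a library's counts per base of gene length, with lengths from the table. Merged exons in GENCODE M21 are longer than these lengths for all 7 genes, by differing amounts. They span 2560 bases against 1370 for Pdlim4, 2108 against 1373 for Ctla2a and 11321 against 10715 for Sorl1. The order of the genes by level can therefore depend on the lengths used, which the intervals do not cover. In the effector library Ctla2a had the highest level at 93.9 TPM (exact Poisson interval 85.6 to 102.9), followed by Pdlim4 at 87.0 TPM (78.9 to 95.7), and their intervals overlapped. Sorl1, at 67.7 TPM (65.1 to 70.4), was next to Cd7 at 62.7 TPM (54.7 to 71.5), and these intervals overlapped too. Cd22 stood at 42.5 TPM (39.1 to 46.0), separate from its neighbours in the order. Hid1 at 25.1 TPM (22.3 to 28.2) and Capn3 at 22.5 TPM (19.8 to 25.4) were the lowest, with overlapping intervals. Measured genes had a median of 31.95 TPM in this library. The effector level of the 7 genes thus ranged from the 39.6th percentile (Capn3) to the 79.4th percentile (Ctla2a) of measured genes, and the large count of Sorl1 went with its length of 10715 bases.

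In the exhausted library the order by TPM was Pdlim4 (2.85), Ctla2a (2.44), Sorl1 (2.21), Cd7 (0.851), Hid1 (0.425), Cd22 (0.280) and Capn3 (0.176). Pdlim4, the highest, stood at the 3.995th percentile of measured genes, whose median was 34.4 TPM. The intervals of the first 3 overlapped one another, as did those of the last 4. The interval of Cd7 (0.176 to 2.49 TPM) also overlapped those of the first 3. With the lengths from the table, intervals were thus apart only between the first 3 and Hid1, Cd22 and Capn3. Differences between genes with overlapping intervals were not tested.

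Few genes of similar effector counts had so few exhausted reads. Of 5839 measured genes with 220 to 2593 effector reads, the range of the 7 genes, the median was 624 exhausted reads. Only 11 of them (0.188%) had 14 exhausted reads or fewer, 6 of which are described here (all but Sorl1), and 7 had 5 reads or fewer. Among measured protein-coding genes with at least 200 effector reads, other genes that dropped at least as much as Pdlim4 were Slc16a5, Trat1, Ly6c1 and Tgfbr3, leaving out predicted genes named by number. Just below Pdlim4 stood Rras2, with 338 against 12 reads (30.5-fold lower, 17.2 to 59.6), and Cxcr3, a chemokine receptor gene, with 3076 against 115 reads (28.9-fold, 24.0 to 35.2). All these values come from the contrast that chose the genes.

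Likeness of pattern was measured as the distance between genes in the plane of log2(scaled CPM + 1) over the 2 libraries. Nearest to Sorl1 were Cxcr3 (distance 0.471) and the semaphorin gene Sema4a (0.943, 2486 against 171 reads), nearest to Cd22 were Trat1 (0.273) and Ly6c1 (0.336), and nearest to Cd7 were Padi2 (0.196, 191 against 3 reads) and Ampd1 (0.325). Capn3 had Padi2 (0.423) and Spsb1 (0.484), and Hid1 had Rras2 (0.634) and Padi2 (0.645). For both Ctla2a and Pdlim4 the nearest genes were Rras2 (0.439 and 0.354) and Eya2 (0.645 and 0.476). With 2 libraries, likeness says only that the genes had similar levels in each.

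Promoter windows of 300 bases, from 250 bases before to 50 after a transcription start, were found in RefSeq (GRCm38.p6, the assembly of mm10) for 5 of 7 genes: Cd22, Capn3, Ctla2a, Sorl1 and Pdlim4. Cd7 and Hid1 were not matched. Where a gene had several windows, the one nearest its start in the deposited table was used. The windows of Sorl1 and Cd22 are shown as the members with a T-box motif, and those of Ctla2a and its neighbour and paralogue Ctla2b for comparison with each other. They read 5′ to 3′ on the strand of the gene. Capitals mark matches on either strand to motif letters of T-box (AGGTGT), AP-1 (TGANTCA) and STAT (TTCNNNGAA) factors.
Sorl1: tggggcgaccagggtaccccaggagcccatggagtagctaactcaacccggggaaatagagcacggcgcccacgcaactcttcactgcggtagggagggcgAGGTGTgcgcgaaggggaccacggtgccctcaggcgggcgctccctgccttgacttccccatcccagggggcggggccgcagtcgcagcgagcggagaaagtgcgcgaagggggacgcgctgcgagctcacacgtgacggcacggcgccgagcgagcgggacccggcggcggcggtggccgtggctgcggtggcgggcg
Cd22: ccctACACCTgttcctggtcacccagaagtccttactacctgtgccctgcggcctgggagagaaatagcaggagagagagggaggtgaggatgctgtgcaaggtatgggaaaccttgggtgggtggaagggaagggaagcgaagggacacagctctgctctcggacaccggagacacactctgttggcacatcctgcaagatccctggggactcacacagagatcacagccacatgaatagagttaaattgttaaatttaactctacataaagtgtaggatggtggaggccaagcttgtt
Ctla2a: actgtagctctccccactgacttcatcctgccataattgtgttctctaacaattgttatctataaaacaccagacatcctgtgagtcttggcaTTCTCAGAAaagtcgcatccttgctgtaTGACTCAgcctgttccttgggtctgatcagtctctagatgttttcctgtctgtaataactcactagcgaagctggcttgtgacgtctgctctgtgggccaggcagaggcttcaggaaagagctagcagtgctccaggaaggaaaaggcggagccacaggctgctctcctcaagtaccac
Ctla2b: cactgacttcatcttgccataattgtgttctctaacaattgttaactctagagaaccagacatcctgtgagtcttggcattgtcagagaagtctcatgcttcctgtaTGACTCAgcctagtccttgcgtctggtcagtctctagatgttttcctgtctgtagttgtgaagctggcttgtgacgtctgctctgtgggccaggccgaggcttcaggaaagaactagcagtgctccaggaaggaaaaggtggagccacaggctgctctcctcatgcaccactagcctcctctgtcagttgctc
The windows lie at chr9:42124248-42124547, chr7:30878979-30879278, chr13:60936576-60936875 and chr13:60897398-60897697, all on the minus strand. The RefSeq start used for Cd22 lies 1314 bases from the start in the table, and that used for Capn3 lies 7574 bases from it.

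The windows did not share a motif across the 5 genes. The T-box letters AGGTGT occurred in 2 of 5 (Sorl1 and Cd22) and in 13.7% of all 32851 windows of this length. TGANTCA occurred in Ctla2a alone among the 5 (7.81% of all windows) and also in Ctla2b, and TTCNNNGAA in Ctla2a alone (8.30%). The letters CACCC, bound by KLF factors, were in 2 of 5 (57.5% of all), and the E-box CANNTG, which overlaps the T-box match in Cd22, was in 4 of 5 (72.3%). No window of the 5 held TGTGGT (RUNX, 16.8% of all), CGGAAG (ETS, 16.9%), CTTTGA (TCF/LEF, 16.0%) or GTAAACA (FOXO, 3.65%), which says only that these letters are not in these windows. Base composition differed among the genes. GC content was 72.3% in Sorl1 and 71.7% in Pdlim4, with 37 and 31 CpG pairs, but 52.3% in Cd22, 49.0% in Ctla2a and 47.7% in Capn3, with 4, 4 and 6 pairs. The median over all windows was 52.7% and 7 pairs.

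Of the 15 genes reported here of the VPS10 sorting receptors, to which SORLA belongs, and the LRP family, 5 were measured and none was called, with a median log2 ratio of -0.05. Lrp10 (4923 against 5776 reads), Lrpap1 (508 against 506) and Lrp6 (306 against 475) were neither. No VPS10 receptor gene other than Sorl1 was measured, so the count of none called covers only the LRP family and Lrpap1. The closest relative by domain, Sort1, had 4 and 2 reads, and Sorcs1 and Sorcs3 had 0 in both libraries. Sorcs2 had 42 against 0 reads, 15.1-fold lower against a floor of 3 reads (lower counting limit 11.8-fold). None of 15 measured genes of the retromer, sorting nexins and GGA adaptors, which carry SORLA between compartments, was called, and their median was -0.06. Vps35 had 1858 against 1463 reads, Snx3 1510 against 2102 and Pacs1 2075 against 1309.

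Other surface genes of the T lineage had smaller ratios than Cd7. Of 13 measured, 3 were lower, 1 higher and 9 neither, and the median log2 ratio was 0.20. Thy1 (835 against 372 reads, 2.43-fold, 2.15 to 2.75), Cd6 (3845 against 1917, 2.17-fold) and Cd48 (3035 against 1561, 2.10-fold) were lower, and Spn, which encodes the sialomucin CD43, was 2.15-fold higher (1509 against 3517, 2.03 to 2.29). Ptprc, which encodes CD45 (29974 against 23257), Cd53 (10476 against 15530) and Cd3e (7624 against 11432) were neither. The mouse genes of the CD7 ligand family, Sectm1a and Sectm1b, had 0 reads in both libraries, which allows up to 3 reads each. Of 4 measured galectin genes 2 were lower, with a median of -1.26. Lgals1, whose product galectin-1 binds CD7 among other T cell surface proteins, had 2319 against 811 reads (3.09-fold lower, 2.85 to 3.35). Lgals3 had 71 against 16 reads (4.80-fold lower, 2.76 to 8.85), and Lgals9 (3139 against 1825) and Lgals8 (678 against 516) were neither.

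Cd22 was the only member of its lectin family with more than 2 reads in either library. None of the 8 other sialic acid binding lectin genes searched was measured, and 5 had 0 reads in both libraries. Of 8 measured genes for CD22 ligand synthesis and inhibitory signalling, 1 was lower, 2 higher and 5 neither, and the median log2 ratio was 0.03. Cmah, which makes the glycolyl form of sialic acid that mouse CD22 binds well, had 1198 against 204 reads (6.35-fold lower, 5.47 to 7.41). St6gal1, the sialyltransferase that completes the CD22 ligand, had 3127 against 3816 reads. Ptpn6, which encodes the phosphatase SHP-1 recruited by CD22, had 4851 against 6676 reads, and the adaptor gene Grb2 had 1688 against 1683. Ptpn11, which encodes the related phosphatase SHP-2, was 5.19-fold higher (330 against 1854 reads, 4.62 to 5.86), and the kinase gene Lyn was 4.62-fold higher (17 against 85 reads, 2.72 to 8.30).

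Because Cd22 is a B cell gene, markers of B cells were counted beside it. Of 13 B cell markers reported here, the 11 that are not immunoglobulin constant genes summed to 39 effector and 26 exhausted reads, against 603 and 4 of Cd22. The defining gene Ms4a1, which encodes CD20, had 0 reads in both libraries, and Cd79a had 8 and 18. The 2 markers past the call rule apart from its read minimum were both lower in the exhausted library. Bank1 had 13 against 0 reads (4.69-fold lower against a floor of 3 reads, lower counting limit 3.30-fold) and Cd79b 12 against 2 (6.49-fold lower, 1.44 to 59.7). Ighm (7540 against 3851 reads, 2.12-fold lower, 2.04 to 2.20) and Igkc (223 against 133) were the exceptions with many reads in both. Over all 13 genes the summed level was 993.3 scaled CPM in the effector and 471.9 in the exhausted library. The part of B cell RNA in the Ighm and Igkc reads was not tested.

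**Figure D3:**
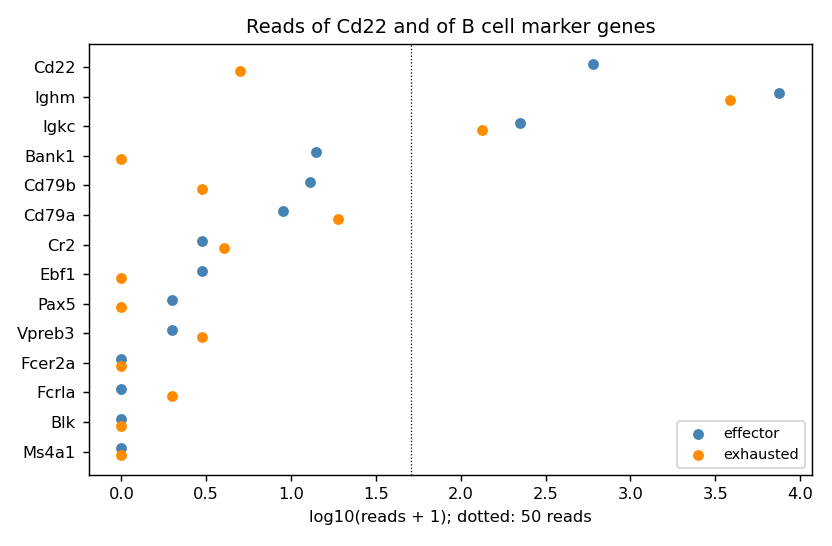
Reads of Cd22 and of 13 B cell marker genes in each library, as log10 of reads plus 1; the dotted line marks 50 reads. Cd22 has 603 effector reads, whereas apart from Ighm and Igkc no marker passes 18 reads in either library.

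Markers of other cells had low counts. Their summed levels were lower in the exhausted library for each other cell type below except natural killer cells. Summed levels in scaled CPM were 20.6 (effector) and 6.71 (exhausted) for 13 macrophage, dendritic cell and granulocyte genes, 3 of them (Ly6g, Fcgr1 and Clec9a) at 0 in both libraries. None of the 13 was measured, but 5 passed the rest of the call rule, all lower. The neutrophil genes S100a8 (30 against 1 read, 32.5-fold lower, 5.39 to 1324) and S100a9 (32 against 2, 17.3-fold lower, 4.42 to 149.1) had ratios with intervals that overlapped those of all 7 described genes. Lyz2, a lysozyme gene, had 37 against 10 reads (counting interval 1.95 to 9.02-fold lower), Csf1r 18 against 4 and Xcr1 9 against 2. The sums were 16.2 and 2.12 for 9 erythroid and platelet genes, of which Hba-a1 was called lower (50 against 6 reads, 9.01-fold, 3.86 to 25.7). Below the read minimum, 3 other globin genes passed the rest of the rule as lower. They were Hbb-bs (33 against 4 reads), Hba-a2 (15 against 1) and Hbb-bt (10 against 1). For 5 plasma cell genes the sums were 6.87 and 3.77, with Igj called lower (47 against 20 reads). For 8 natural killer cell genes the sums were 7.51 and 29.7, of which Klrb1c gave 4.58 and 27.0. Klrb1c was called higher (36 against 229 reads, 5.88-fold, 4.13 to 8.61), and Klre1 and Klra8 were at 0 in both. Tyrobp, below the read minimum, passed the rest of the call rule as lower (9 against 1 read, 9.74-fold, 1.35 to 426.7). For 7 CD8 and gamma-delta T cell genes the sums were 22.7 and 19.4. Cd8b1 was lower (164 against 81 reads), Sox13 higher (9 against 63) and Cd8a at 0 in both. Tcrg-C4, below the read minimum, passed the rest of the rule as higher (1 against 10 reads). The 7 described genes together had 617.7 and 14.7 on the same scale. The part of these other cells in the counts of the 7 genes was not tested. The CD4 T cell genes had many reads in both libraries, which does not separate TEa cells from other CD4 T cells. Of 10 measured, 9 were neither, among them Trbc2, Lck and Cd4, and Trac was 2.11-fold lower.

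Among other calpain genes, Capn2 was lower and the rest were not called. Of 15 genes for calpains, their small subunits and the inhibitor calpastatin, 8 were measured, 1 was lower and 7 neither. Their median log2 ratio was 0.16. Capn2, which encodes the large subunit of a widely expressed calpain, had 2525 against 758 reads (3.60-fold, 3.32 to 3.91). Cast, which encodes calpastatin (2697 against 1853), Capn7 (1049 against 1284) and the small subunit gene Capns1 (850 against 1430) were neither. Capn3 shares exon sequence with Ganc on the same strand, over 386 bases or 7.68% of its exons in GENCODE M21. Ganc had 193 against 207 reads, a log2 ratio of -0.01.

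The paralogue of Ctla2a was also called lower. Ctla2b, 36.7 kb away on the same strand, had 100 effector and 14 exhausted reads, 7.73-fold lower (4.40 to 14.6). That interval lay wholly below that of Ctla2a. The 2 promoter windows shown above were identical at 92.1% of 278 aligned bases. The longest transcripts, of 1373 and 1610 bases, aligned only in part (local alignment) and were identical at 87.2% of 685 aligned bases. Of all 50-base stretches in Ctla2a transcripts, 25.8% also occur in transcripts of other genes in GENCODE M21, against 69.0% for Ctla2b. The predicted gene Gm49391, which was not matched in the count table, holds most of them (18.2% of the Ctla2a stretches and 56.5% of those of Ctla2b), and it shares 343 bases, or 16.3%, of Ctla2a exon sequence on the same strand. Thus both counts are uncertain, because the handling of reads shared between genes is not given in the sources used here. The same share was 7.84% for Cd22, 6.92% for Cd7, 6.32% for Capn3, 0.799% for Sorl1 and 0 for Hid1 and Pdlim4. For Cd22, Cd7 and Sorl1 it came mostly from antisense genes (Gm29439, Gm11775 and Gm16214), which had at most 4 reads in a library. In the list of cystatins with Ctla2b, 4 were measured, 1 was lower, 1 higher (Cst7, 534 against 1432 reads, 2.48-fold, 2.24 to 2.74) and 2 neither (Cstb, 434 against 408, and Cst3, 305 against 375). The list had a median log2 ratio of -0.01. Of 7 measured cysteine cathepsin genes Ctsw was the 1 called, lower with 423 against 203 reads (2.25-fold, 1.90 to 2.68), and the median was -0.05. Ctsb (4477 against 6364), Ctsc (1614 against 2959) and Ctss (1300 against 1010) were neither.

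None of 14 measured genes of granule formation and trans-Golgi transport was called, and their median log2 ratio was -0.12. Ratios were below equality for 11 of the 14, while the median of all measured genes, at -0.002, was close to equality. Tgoln1 had 2177 against 2560 reads, Rab2a 1700 against 1541 and Vps54 962 against 957. Scg5, which encodes the granule protein 7B2, was below the read minimum with 21 against 4 reads (5.68-fold lower, 1.92 to 22.8). Of 10 measured PDZ-LIM, alpha-actinin and actin-linked LIM genes 1 was lower and 9 neither, with a median of -0.37, against -0.002 for all measured genes. Ratios were below equality for 7 of the 10. The lower one was Actn1, which encodes a binding partner of the PDZ-LIM family, with 1657 against 460 reads (3.90-fold, 3.51 to 4.33). Actn4 (3499 against 2976), Tes (2067 against 2294) and Zyx (2240 against 1488) were neither, and Actn2, below the read minimum, had 40 against 0 reads. Over all 11 lists, 88 of 134 genes reported here were measured, 10 were lower (11.4%, against 7.07% of all measured genes) and 4 higher (4.55%, against 6.65%).

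**Figure D4:**
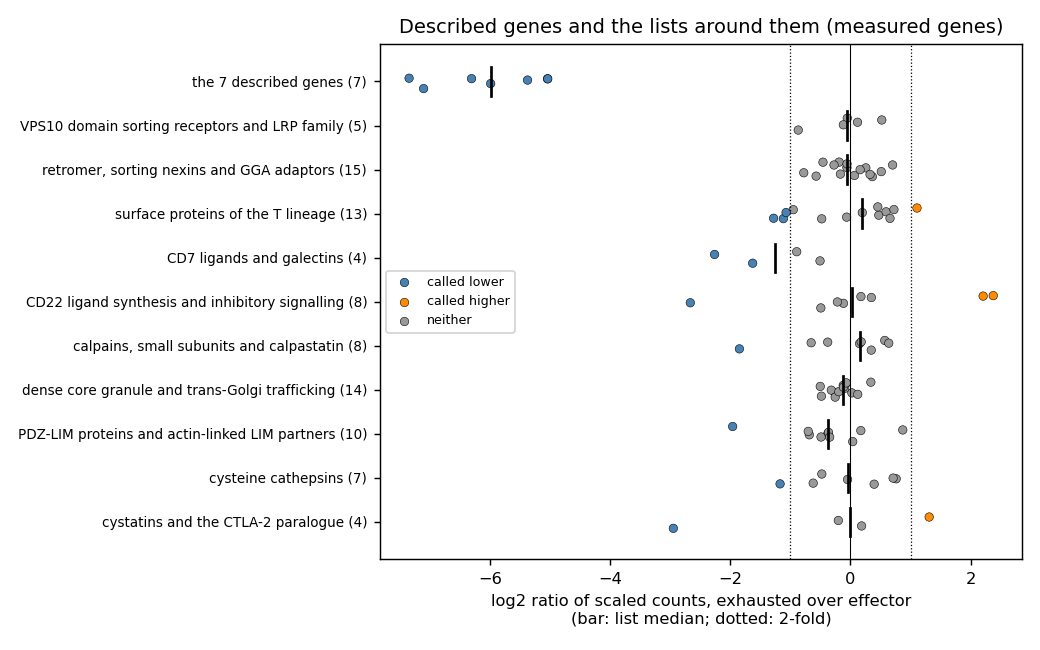
Log2 ratio of scaled counts, exhausted over effector, for each measured gene of the described set and of 10 lists of related genes (number measured in brackets); black bars are medians, dotted lines 2-fold. The 7 genes lie below -5, and the next lowest plotted gene is Ctla2b at -2.95.

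Most chromosomal neighbours of the 7 genes were not called. Within 200 kb of a gene's ends the table held 35 measured neighbours, of which 5 were lower (14.3%, against 7.07% of all measured genes), 3 higher and 27 neither. Their median log2 ratio was -0.24. The exception of similar size lay near Hid1. Slc16a5, a monocarboxylate transporter family gene 94.7 kb from Hid1 on the opposite strand, had 456 against 1 read (493-fold lower, 88.1 to 19525), the lowest ratio of all measured genes. It overlaps the antisense gene Gm11695 (37 against 0 reads). Between Hid1 and Slc16a5, Cdr2l, 14.2 kb from Hid1, was below the read minimum with 13 against 1 read (14.1-fold lower, 2.11 to 597.6). Farther along, Ict1 (295 against 197 reads), Atp5h (1832 against 1533) and Kctd2 (586 against 508) were neither. On the other side of Hid1, towards the chromosome start, Fdxr at 70.7 kb was 2.55-fold higher (194 against 536 reads) and Rab37 at 185.5 kb was 2.09-fold lower.

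Around the other genes, Csnk1d (1925 against 2833 reads) and Ogfod3 (33 against 37) flanked Cd7 and were neither, and Slc16a3, a lactate transporter gene 75.9 kb away, was 4.79-fold higher (17 against 88 reads, 2.83 to 8.58). Tmem147 (469 against 430) and Usf2 (85 against 107) flanked Cd22, and Lsr was 2.34-fold higher at low counts (17 against 43). Next to Capn3, Zfp106, 1.91 kb away, had 1039 against 1185 reads and Tmem87a 141 against 158, and Lrrc57 was 2.55-fold lower (283 against 120). Sc5d, a sterol synthesis gene 129.9 kb from Sorl1 and its only measured neighbour, was 2.10-fold lower (1037 against 534 reads, 1.89 to 2.34). P4ha2, 31.1 kb from Pdlim4, was below the read minimum with 10 against 1 read (10.8-fold lower, 1.54 to 469.4). The nearest measured neighbour of Pdlim4 was Slc22a5 (182 against 145 reads) at 163.3 kb. Besides Ctla2b, only Dapk1 (72 against 66) was measured near Ctla2a.

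**Figure D5:**
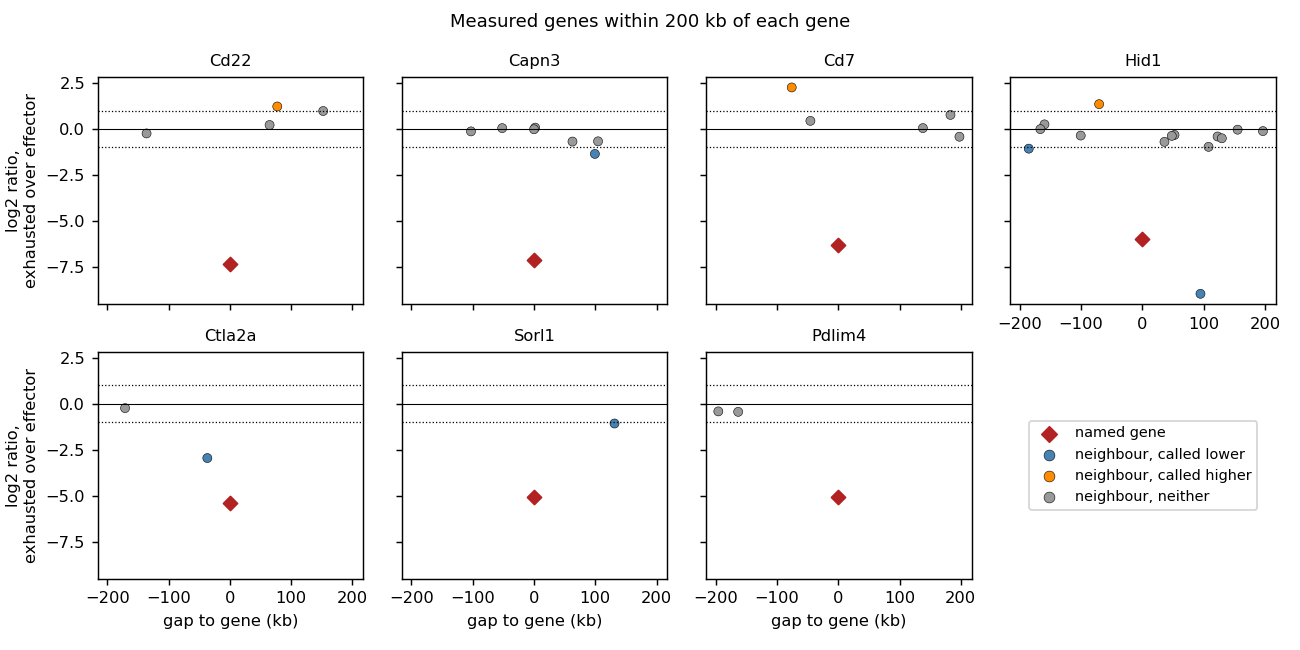
Log2 ratio of scaled counts, exhausted over effector, of measured genes within 200 kb, by the gap in kb to each described gene (red diamond at 0, negative values towards the chromosome start). Only Slc16a5 near Hid1 lies as low as a red diamond.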

How the data were processed

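Per the labels' protocols, Trizol RNA of sorted, frozen TEa cells went into libraries built with a Takara low-input kit. The authors deposited raw counts of reads for each gene, with coordinates and lengths. STAR 2.6 and mm10 are named in the submitters' processing notes. Which program counted reads, whether by strand and on which annotation, is not given in the sources used here. The table records no molecular identifiers, so amplified copies can be counted more than once, and intervals and floors cover counting error only.

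Columns were matched to samples by title. Effective library sizes came from TMM factors (edgeR 4.0.16, R 4.3.3) over the 9999 measured genes. Ratios have exact Clopper-Pearson 95% intervals (scipy 1.17.1). A library with 0 reads was set to a floor of 3. With 1 library per group no p-value was computed. The call rule was run on simulated counts that held counting error only. That run says nothing about variation between animals or amplified copies. Alternatives changed the scaling (DESeq2 1.42.0, total counts, upper quartile), read minimum (1 or 500), size rule (interval wholly beyond 2-fold, or 4-fold), prior count (2) and depth.

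The genes and lists were chosen with earlier results of these data known. Named were all 7 genes, each list's called genes and up to 3 others with the most reads, each gene's nearest, called or exon-sharing neighbours, and the 2 genes nearest in level. Others, such as Sort1, Sectm1a, Ms4a1, S100a8, Cdr2l and Atp5h, were chosen after their values were seen. Of the list entries, Ighd and Trdc had no matching row, and 2 other entries are not reported here. Exons and transcripts were taken from GENCODE M21, in which the spans of the 7 genes equal those of the table. Their merged exon lengths there exceed the lengths in the table.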

Additional observations from a re-analysis of the deposited data

How the results depend on the processing

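All 7 genes were lower under the 5 alternatives of scaling, prior count and depth, with each log2 ratio inside its own counting interval. The range was 32.3 to 33.1-fold for Sorl1, 28.9 to 33.0-fold for Pdlim4, 109 to 200.4-fold for Cd22 and 69.5 to 138.3-fold for Capn3. The changes of scaling moved the log2 ratio of measured genes by a median of at most 0.024. They could therefore not reverse ratios of this size. All 7 were also lower with an interval wholly beyond 2-fold and by the 4-fold rule, but a minimum of 500 reads left 2 measured (Sorl1 and Cd22). Counts over all genes depended on the rule. Lower and higher genes numbered 1102 and 1040 with at least 1 read, 264 and 244 with at least 500 reads, 453 and 408 with an interval wholly beyond 2-fold, and 238 and 220 by the 4-fold rule. By the 4-fold rule 3 genes of the 11 lists were lower and 2 higher. These settings change how many genes can be counted or called by construction. No paired analysis was possible because each group has 1 library. Depth limits Cd22, Capn3, Cd7 and Hid1, which had 2 to 5 exhausted reads.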

Other observations

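Of the 46 genes of the 11 lists below the minimum of 50 reads, 5 passed the rest of the call rule as lower in the exhausted library (Sorcs2, Lrp5, Syk, Scg5 and Actn2) and 2 as higher (Btk and Stfa3). They were looked at after their values were seen. Sorcs2, a VPS10 receptor gene of the Sorl1 family, had 42 against 0 reads. It was 15.1-fold lower against a floor of 3 reads in the exhausted library (lower counting limit 11.8-fold). Actn2, an alpha-actinin gene, had 40 against 0 reads and was 14.4-fold lower against the same floor (lower counting limit 11.2-fold). Near Ctla2a, 4930486L24Rik on the same strand had 46 against 3 reads (16.6-fold lower, 5.33 to 83.4). Lrp5 had 14 against 1 read and Syk, a kinase gene, 7 against 0. Btk, the gene of another kinase of B cell receptor signalling, was higher with 5 against 44 reads (8.14-fold, 3.23 to 26.3), and Stfa3, a stefin gene, with 3 against 24 reads (7.40-fold higher, 2.25 to 38.4).

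By position, 3 of the 7 genes (Cd7, Hid1 and Pdlim4) lie on chromosome 11, which holds 8.27% of measured genes and where 6.41% of measured genes were lower. On the minus strand lay 6 of the 7, against 49.4% of measured genes.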
